A study of Mus musculus with 2 samples.

Results

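Small pre-B and immature B cells of the mouse calvarial defect, the stage at which a developing B cell already carries a μ heavy chain and is making its light chain, were selected from single-cell RNA-seq by their own transcript counts. A cell was a member when it held at least 4 UMIs (unique molecular identifiers, each standing for 1 captured RNA molecule) of Cd79a and Cd79b together, fewer than 3 of Vpreb1, Igll1 and Dntt together and 0 of Ighd. It also had to hold fewer than 50 UMIs of Jchain and fewer than 5 of Siglech, with S100a8 and S100a9 below 3% and Col1a1, Col1a2 and Col3a1 below 1% of its UMIs. Of 17129 cells within the limits on UMIs, genes and mitochondrial share, 495 met this rule, 246 of 9036 in the GA library and 249 of 8093 in the control library. Those genes chose the members, so their levels describe the choice and are no finding.

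The cells came from male C57BL/6 mice, 2 months of age, 7 days after a circular defect was made in the frontal bone. One group received gambogic amide (GA), a small molecule receptor agonist, by intraperitoneal injection once a day from 24 h before injury for 1 week, and the labels give the dose as 1.2 mg/kg in 100 µL of 10% DMSO. The other group received the 10% DMSO vehicle alone. The study used this comparison to ask how the agonist alters the cells of a healing calvarial bone defect. Each condition was 1 library of tissue pooled from 5 mice, so the mice cannot be told apart, no test between conditions was possible, and every interval here (95%) covers counting error only.

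B cells develop in the bone marrow, which the cranial bones also hold. A pro-B cell joins its heavy chain gene segments with the Rag1 and Rag2 recombinase, pairs the new μ chain with the surrogate light chain made from Vpreb1 and Igll1, and divides as a large pre-B cell. It then leaves the cell cycle as a small pre-B cell, switches Rag1 and Rag2 on again, joins a κ or λ light chain and, with IgM on its surface, becomes an immature B cell that gains Ms4a1 (CD20) and MHC class II before it makes IgD from Ighd.

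The rule also admitted cells that were not B cells by their other genes. With Ebf1, Pax5 and Vpreb3, genes of B cell identity that the rule did not use, 210 GA members and 236 control members held at least 3 UMIs of these genes together. The other 36 GA members and 13 control members held at most 2 and 1 such UMIs and at most 1 UMI of Cd79a, so that their place among the members rested on Cd79b. These cells were deep, with medians of 60553 and 27475 UMIs against 5676 and 5367 in the members with B markers. They were 14.6% of the GA members and 5.22% of the control members but held 59.9% and 17.9% of the members' UMIs. Mpo, Elane and Prtn3, proteases and peroxidase of granulocyte precursors, summed to at least 100 UMIs in 26 of the 36 and 4 of the 13, while no member with B markers held more than 2. C1qa, C1qb and Lyz2, complement and lysozyme genes of macrophages and monocytes, summed to at least 100 UMIs in 7 and 8 of them. Gene levels below are therefore given for the 446 members with B markers and, where they differ, for all 495.

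**Figure D1:**
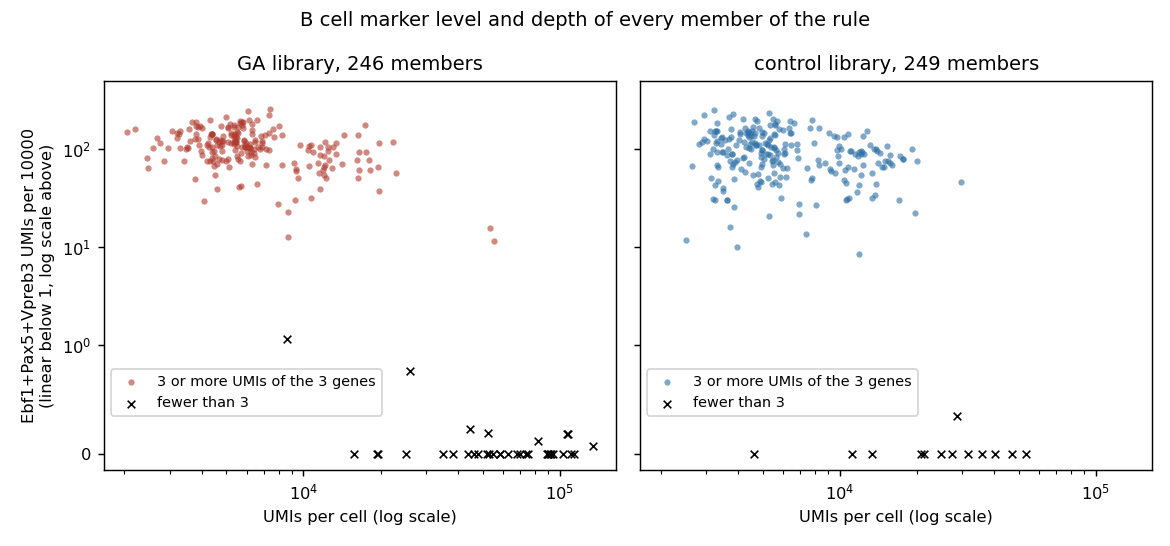
UMIs of Ebf1, Pax5 and Vpreb3 per 10000 UMIs of the cell (linear below 1, log above) against the cell's total UMIs (log scale), 1 point per member, GA left and control right. The 36 GA and 13 control members drawn as crosses lie at or near 0, and most of them lie to the right of the 210 and 236 members with B markers.

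The 446 cells were B lineage cells by Ighm, the μ constant region, which neither the rule nor the B markers used. After every cell was thinned to 2000 UMIs, Ighm had a UMI in 99.5% of GA and 98.3% of control cells, against 7.97% and 12.0% of neutrophils (cells with S100a8 and S100a9 at 10% or more of UMIs and Cd79a and Cd79b at 0), which should lack it. Most cells of both neighbouring stages held Ighm too. It had a UMI in 86.2% and 90% of thinned pro-B and large pre-B cells and in 96.4% and 97.0% of Ighd-positive B cells. Vpreb3, a chaperone-like partner of the light chain, chose the cells and so cannot check the label. It was in most cells of both neighbouring stages too, 92.8% and 95.3% before and 72.0% and 64.2% after. Ebf1, another of the B markers, was not particular to B cells here. It had a UMI in 68.6% of GA and 57.7% of control thinned mesenchymal cells, where Ighm had one in 0.551% and 0.545%. Ighm was at 3061 and 3000 CPM (counts of the gene scaled to 1000000 UMIs) in GA and control, with an interval of the log2 ratio that includes 0. Its level was lower in the pro-B and large pre-B cells, at 1189 and 1332 CPM. In the Ighd-positive cells it was at 2629 and 2289.5 CPM. Ighg1, Ighg2c, Ighg3 and Ighe had 0 UMIs in both libraries, and Igha had 11 and 7. At the edges of the rule, 23 GA and 9 control members held exactly 4 UMIs of Cd79a and Cd79b, and of 38 and 17 cells just outside with 3 only 2 and 1 carried B markers. Another 94 GA and 96 control cells stood outside by a single Ighd UMI. One feature went against the word small: 53 GA and 68 control cells with B markers held at least 3 UMIs of Mki67 and Top2a, genes of dividing cells, and had median depths of 12139 and 11869 UMIs.

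Over all cells the members were a slightly smaller share in GA than in control, and over the cells that were not neutrophils a larger one. In GA they made up 2.72% (2.40 to 3.08) of cells and in control 3.08% (2.71 to 3.48), a ratio of 0.885 (0.744 to 1.05), which became 1.02 when 2 UMIs of Cd79a and Cd79b were enough and 0.786 (0.653 to 0.944) when 8 were required. For the members with B markers the shares were 2.32% and 2.92% and the ratio 0.797 (0.663 to 0.957). The denominator mattered, because neutrophils made up 46.2% of cells in GA and 20.3% in control. Over the other cells, the members were 5.06% in GA and 3.86% in control, a ratio of 1.31 (1.10 to 1.56). With B markers required they were 4.32% in GA and 3.66% in control, a ratio of 1.18 (0.984 to 1.42), with an interval that includes 1. Over B lineage cells with B markers they were 210 of 598 (35.1%) in GA and 236 of 588 (40.1%) in control, a ratio of 0.875 (0.755 to 1.01). The stage before, pro-B and large pre-B cells with at least 3 UMIs of Vpreb1, Igll1 and Dntt, was 195 and 150 of the same cells, a ratio of 1.28 (1.07 to 1.53). The stage after, Ighd-positive B cells, was 193 and 202.

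Inside the members, Rag1 and Ms4a1 marked different cells. Among the cells with B markers, 106 in GA (50.5%) and 112 in control (47.5%) had a UMI of Rag1 or Rag2 and none of Ms4a1, a ratio of 1.06 (0.880 to 1.29). Ms4a1 without Rag1 or Rag2 was found in 36 (17.1%) and 55 (23.3%), a ratio of 0.736 (0.505 to 1.07). When every cell was thinned to 2000 UMIs, the Ms4a1 cells were 12.4% of GA and 22.0% of control, a ratio of 0.562 (0.365 to 0.866). Both kinds of transcript were found in 13 and 10 cells, and neither in 55 and 59. The Ms4a1 cells were a smaller share of GA than of control at either depth, and the interval includes 1 without thinning and not after it.

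The promoters of Rag1, which defines the earlier range, and of Bank1, a B cell receptor adaptor and the gene that led the Ms4a1 range, show what these genes carry upstream. The 250 bases before each start site are given 5′ to 3′ on the gene's strand from RefSeq (GRCm38.p6), Rag1 at chr2:101649533-101649782 and Bank1 at chr3:136326067-136326316, both on the minus strand, with the letters CAGGTG or their complement CACCTG, an E-box of the kind that E2A proteins bind, in capitals.
Rag1: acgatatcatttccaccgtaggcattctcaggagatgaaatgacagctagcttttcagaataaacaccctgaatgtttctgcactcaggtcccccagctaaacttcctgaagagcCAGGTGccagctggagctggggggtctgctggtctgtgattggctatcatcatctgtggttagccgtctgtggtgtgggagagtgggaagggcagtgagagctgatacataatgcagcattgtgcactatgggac
Bank1: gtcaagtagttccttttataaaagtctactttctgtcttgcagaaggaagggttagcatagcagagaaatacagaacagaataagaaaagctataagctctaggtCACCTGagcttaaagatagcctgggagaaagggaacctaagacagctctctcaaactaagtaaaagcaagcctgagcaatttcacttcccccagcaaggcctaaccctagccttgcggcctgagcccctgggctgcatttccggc
The E-box lies at bases -135 to -130 of Rag1 and -145 to -140 of Bank1, and on both strands together these letters are in 17.2% of 32851 mouse promoters of that length. Counted over genes, with the first promoter listed for each, it was in 8 of 13 matched genes of the B cell receptor signalling list, 3 of 8 for B cell identity, 3 of 11 for the pro-B stage, 3 of 13 for the immature to mature transition, 1 of 11 for V(D)J recombination and 1 of 17 for the cell cycle. The EBF motif, the palindrome bound by the factor that Ebf1 encodes, is in 0.779% of all promoters and not in these letters of either. Such matches describe letters and are not evidence of binding.

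From the Rag only to the Ms4a1 only range, Il7r fell and Cd74, Bank1 and Ltb rose in both libraries. Not every gene of the immature to mature list rose, since Cd38 went from 362 and 344 CPM (GA and control) to 184 and 196 CPM. For this the dividing cells (53 GA, 68 control) were set apart first, which left 76 and 71 cells with Rag1 or Rag2 only, 13 and 10 with both, 35 and 34 with neither and 33 and 53 with Ms4a1 only. Il7r, the receptor for the growth factor IL-7, was at 820 and 710 CPM (GA and control) in the Rag only range and at 104 and 71.4 CPM in the Ms4a1 only range. Sox4, a transcription factor of early B cells, was at 846 and 822 CPM in the Rag only range and at 294 and 92.8 CPM in the Ms4a1 only range. Cd74, the MHC class II invariant chain, was at 5444 and 6533 CPM in the Ms4a1 only range and at 431 to 1128 CPM in the others. Bank1 was at 720 and 913 CPM there, and Ltb, which encodes lymphotoxin β, at 265 and 453 CPM. Igkc, the κ constant region, was lowest in the dividing range of GA, at 1966 CPM, and in the range with both in control, at 392 CPM, and was highest in the Ms4a1 only range, at 10703 and 6764 CPM. Since Rag1, Rag2, Ms4a1, Mki67 and Top2a cut the ranges and the other genes come from the same cells, these are descriptions.

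**Figure D2:**
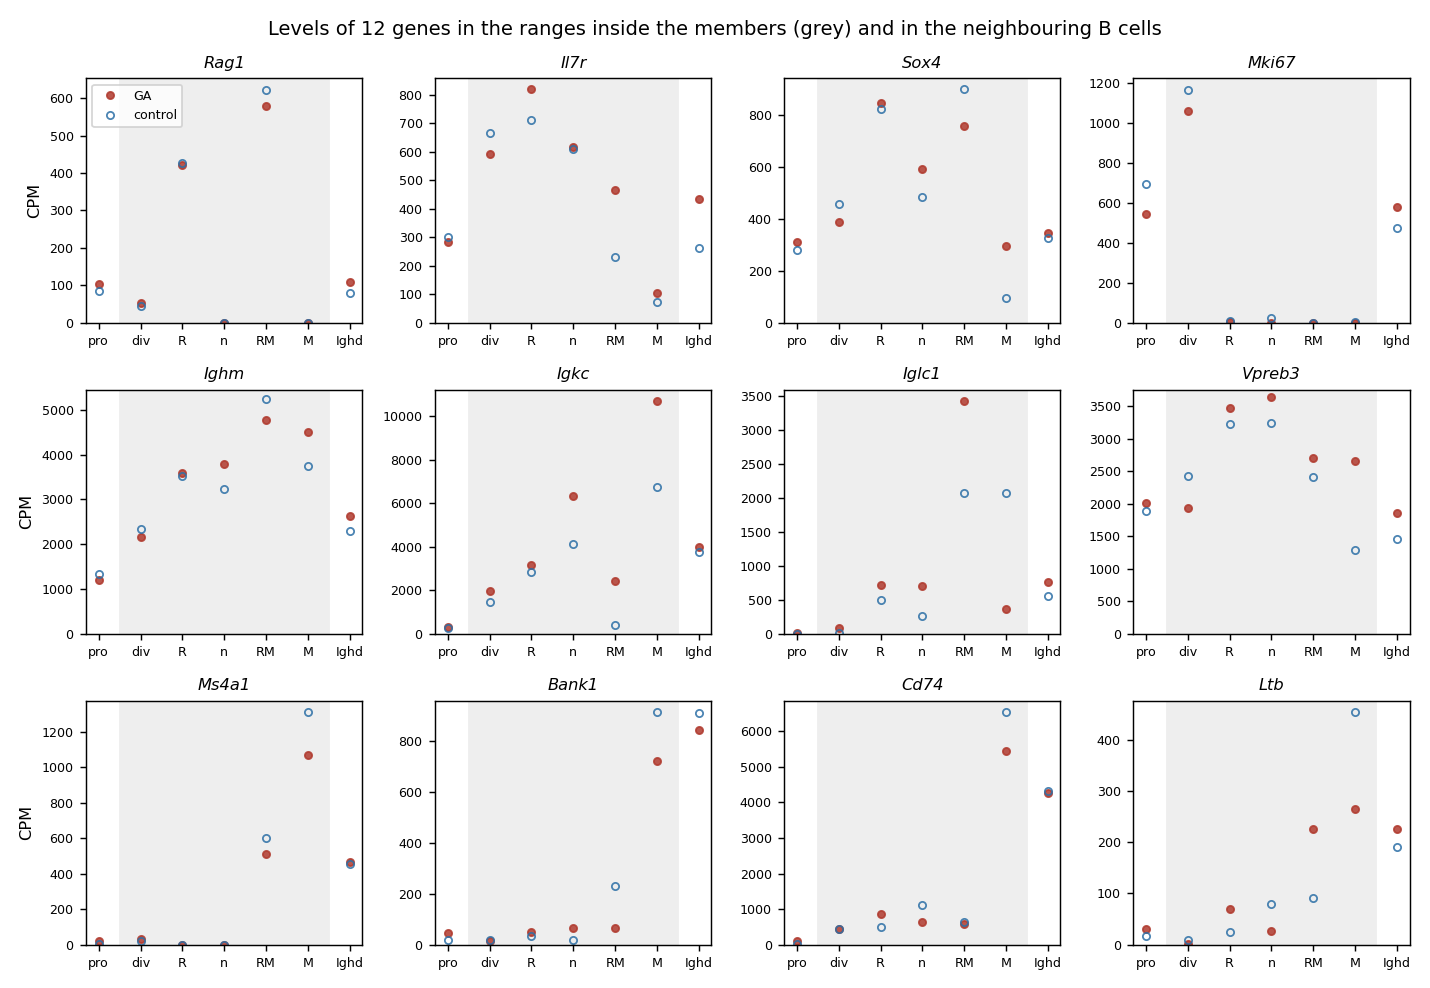
CPM of 12 genes summed over the cells of each range, GA filled and control open, with pro-B and large pre-B cells (pro), the dividing cells (div), Rag only (R), neither (n), both (RM), Ms4a1 only (M) and Ighd-positive cells (Ighd). The grey band holds the ranges inside the members with B markers; inside the band Cd74, Bank1 and Ms4a1 are highest in M in both libraries and Il7r is highest in R.

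The leaders of each range were taken as the 10 genes with the largest ratio to the other ranges in the same direction in both libraries. The Rag only range was led by Gm32569, followed by Reln, which encodes the secreted protein reelin, at 290 and 165 CPM, and Nav2, a cytoskeletal protein, at 414 and 257 CPM. Il2ra, which encodes CD25, the usual surface marker of small pre-B cells in the mouse, was among them, at 152 and 249 CPM. Nusap1, Kif11 and Cenpf of the mitotic spindle and kinetochore led the dividing range together with histone genes such as Hist1h2ap. The range with both kinds of transcript, of 13 and 10 cells, shared Gm32569 and Reln among its leaders at higher levels, 466 and 369 CPM for Gm32569 and 418 and 369 CPM for Reln. Arhgef3 led it at 353 and 323 CPM, and Iglc2, at 883 and 3410 CPM, and Iglc1, at 3421 and 2074 CPM, were among the others. In the Ms4a1 only range the leaders after Bank1 and Cd74 included H2-Eb1, a class II chain, Ifi30, which reduces disulfides of antigens, and Ptpn6, the phosphatase SHP-1.

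Between GA and control the members with B markers were close at nearly every gene. Of 2949 genes with at least 200 UMIs over both libraries, none lay above a log2 ratio of 1 (0%) and 3 lay below -1 (0.102%), Hspa1a, Iglc2 and Hist1h3c, with a median log2 ratio of 0.00. Over all 495 members the same count was 288 genes of 4900 (5.88%) above 1 and 137 (2.8%) below -1, around a median of -0.10. Prtn3, a granulocyte precursor protease, was among the highest of those, with 13215 UMIs in GA and 972 in control. The deep cells without B markers held most of the GA members' UMIs, and without them the 288 became 0 and the 137 became 3.

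**Figure D3:**
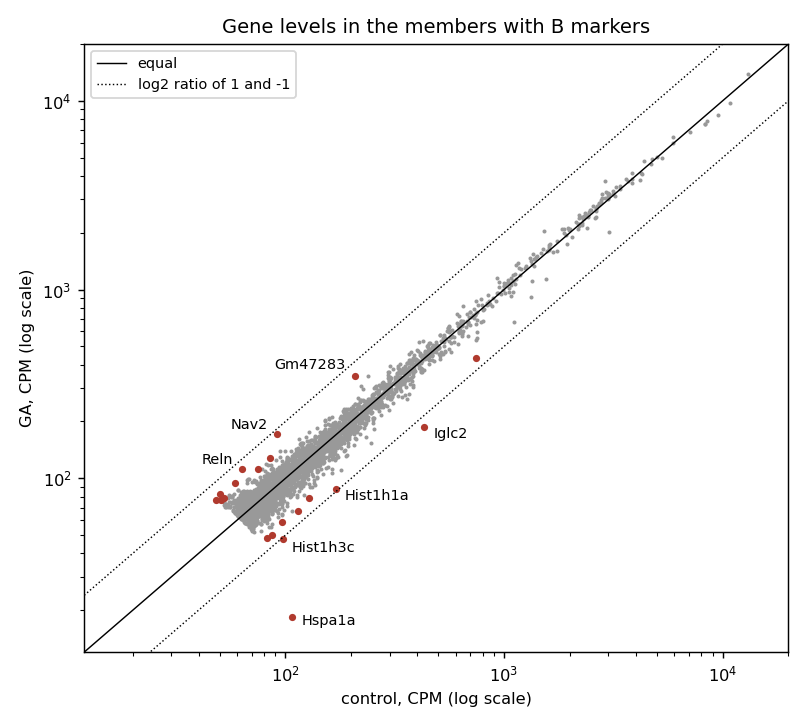
CPM in GA against control (both log scales) for the genes with at least 200 UMIs in the members with B markers, rule genes left out, with the 20 genes of highest and lowest ratio in red. Hspa1a, Iglc2 and Hist1h3c are below the dotted line for a log2 ratio of -1, and no gene is above the line for 1.

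Hspa1a, an inducible heat shock protein 70 gene at chr17:34969190-34972156 (mm10), had the lowest ratio. GA held 29 UMIs in 8 cells and control 178 UMIs in 24 cells, or 18.3 and 107 CPM, a log2 ratio of -2.55 (-3.17 to -1.98). The 5 richest cells of each library held 26 and 136 of these UMIs, and without them the log2 ratio was -3.74. Its near-identical neighbour Hspa1b, under the count limit, had 34 and 154 UMIs, and reads of the pair may be split between them. In the Ms4a1 only range Hspa1a was at 23.0 CPM in GA and 303 CPM in control. Ighd-positive cells also held less Hspa1a in GA, 21.3 against 137 CPM, while pro-B and large pre-B cells held 59.5 and 55.5 CPM. Of the 11 immediate early and stress genes compared, 5 were above 0 and 6 below, with a median of -0.01. Hsp90aa1, the inducible heat shock protein 90, was at 557 and 756 CPM, and Txnip, a thioredoxin inhibitor, at 204 and 152 CPM. Below 200 UMIs, the activity-induced transcription factors Egr1 (20 and 61 UMIs) and Nr4a1 (36 and 106 UMIs) were also lower in GA, while Fos (53 and 51) was level.

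Iglc2, a λ constant region gene at chr16:19198396-19200351, was found at 294 UMIs over 49 cells of GA and 716 UMIs over 66 cells of control, 186 and 432 CPM, a log2 ratio of -1.22 (-1.42 to -1.02). Igkc was at 3746 and 2895 CPM, a log2 ratio of 0.37 (0.32 to 0.43). Iglc1 had 747 and 893 UMIs and Iglc3 had 440 and 514, so that of the 4 light chain genes 1 was above 0, with a median of -0.17. Iglc2 and Iglc3 are near-identical copies, so the split between them is uncertain. Hist1h3c, a replication-dependent histone H3 gene, had 75 UMIs in GA and 161 in control, a log2 ratio of -1.03 (-1.45 to -0.63), and Hist1h1a and Hist1h4i, 2 other such histones, had log2 ratios of -0.95 and -0.77. Other replication-dependent histones were among the leaders of the dividing range, Hist1h2ap at 4119 and 6145 CPM there and Hist1h1b at 1840 and 2681 CPM.

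The 10 lowest also included Apoe, Gadd45b, Ltb and Satb1, a chromatin organiser at 78.4 and 129 CPM. Without its 5 richest cells in each library, Gadd45b moved from a log2 ratio of -0.77 to -0.18. The 10 highest ran from a log2 ratio of 0.58 to 0.91. Nav2 was at 171 and 91.1 CPM (0.91, 0.62 to 1.21) and Reln at 111 and 63.4 CPM (0.81, 0.46 to 1.18), and both were leaders of the Rag only range. Gm47283 had 548 and 345 UMIs, and the others were Mkrn1, Cebpg, Ccdc174, Rpia, Epc2, Rbms1 and Abcg1, a cholesterol exporter.

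By role, the gene groups of B cell development differed little as well. The background above is for ratios beyond 1. For counts above or below 0, the median of all 2949 genes was 0.00, so these lay about equally on either side. Their 10th and 90th percentiles were -0.24 and 0.24. Of the 10 B cell identity genes compared, 9 were above 0 and Pou2af1, a co-activator of immunoglobulin genes, below, with a median of 0.14 and none beyond 1. Ebf1, Pax5 and Vpreb3 chose these cells, and without them 6 of 7 were above 0, with a median of 0.16. Ly6d, a surface protein of committed B cells, was at 2048 and 1526 CPM. The 5 genes compared for the pro-B stage, among them Il7r (593 and 558 CPM) and Sox4 (528 and 487 CPM), were all above 0, with a median of 0.09. For V(D)J recombination 2 of 5 were above 0, Rag1 (152 and 130 CPM) among them, with a median of -0.07, and Rag2 had 50 and 52 UMIs.

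Among 13 genes of B cell receptor signalling 10 were above 0, with a median of 0.05. Bank1 was the exception in size, at 110 and 179 CPM, a log2 ratio of -0.70 (-0.98 to -0.42), whereas the kinase Syk was at 958 and 942 CPM and the adaptor Blnk at 932 and 847 CPM. Of 19 transcription factors 13 were above 0, with a median of 0.05, and without Ebf1 and Pax5 11 of 17. Bcl11a, needed for early B cells, was at 119 and 81.5 CPM, and Irf4, which acts at the pre-B to immature B step, at 275 and 351 CPM. Of 6 genes of the IL-7 receptor pathway 4 were above 0, with a median of 0.05.

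On the list for the immature to mature transition 10 of 16 genes were below 0, with a median of -0.18, none beyond 1. The 10th and 90th percentiles of all compared genes, -0.24 and 0.24, are of single genes and do not measure how far a list median can vary. Ms4a1 was at 154 and 247 CPM, a log2 ratio of -0.68 (-0.92 to -0.45), Cd74 at 1132 and 1553 CPM, -0.46 (-0.54 to -0.37), and H2-Eb1 at 132 and 188 CPM. Cd52 and Cd93, the latter a marker of immature B cells, were above 0. Among the leaders of the Ms4a1 only range, Cd74, H2-Eb1 and Ltb were below 0 here and Cd52 was not. Over all 495 members 10 of 18 genes of this list lay below -1, with a median of -1.06. Of all 4900 genes compared there 137 (2.8%) did, with a median of -0.10. The 10 identity genes were likewise all below 0 there, with a median of -0.89, and the cell cycle list had a median of 0.09. These values include the cells without B markers, which held 59.9% of the GA and 17.9% of the control members' UMIs.

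Cell cycle genes were below 0 in 16 of 19, with a median of -0.11. Mki67 was at 519 and 574 CPM and Top2a at 818 and 882 CPM, in 53 and 72 cells each. The dividing cells were 25.2% of GA and 28.8% of control, a ratio of 0.876 (0.644 to 1.19), or 19.0% and 25.0% after thinning. Of 6 genes for marrow retention and egress 5 were above 0 (median 0.12), including Cxcr4, the receptor for the marrow chemokine Cxcl12, at 242 and 205 CPM. Of 7 survival genes 4 were above 0 (median 0.09), with Btg1, an antiproliferative gene, at 1156 and 930 CPM. Bcl2a1b, an antiapoptotic BCL2 family gene, was at 5 UMIs over 4 cells in GA and 60 over 13 in control. Of the 3 interferon genes compared 1 was above 0 (median -0.15), and Ifi27l2a was at 538 and 744 CPM.

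**Figure D4:**
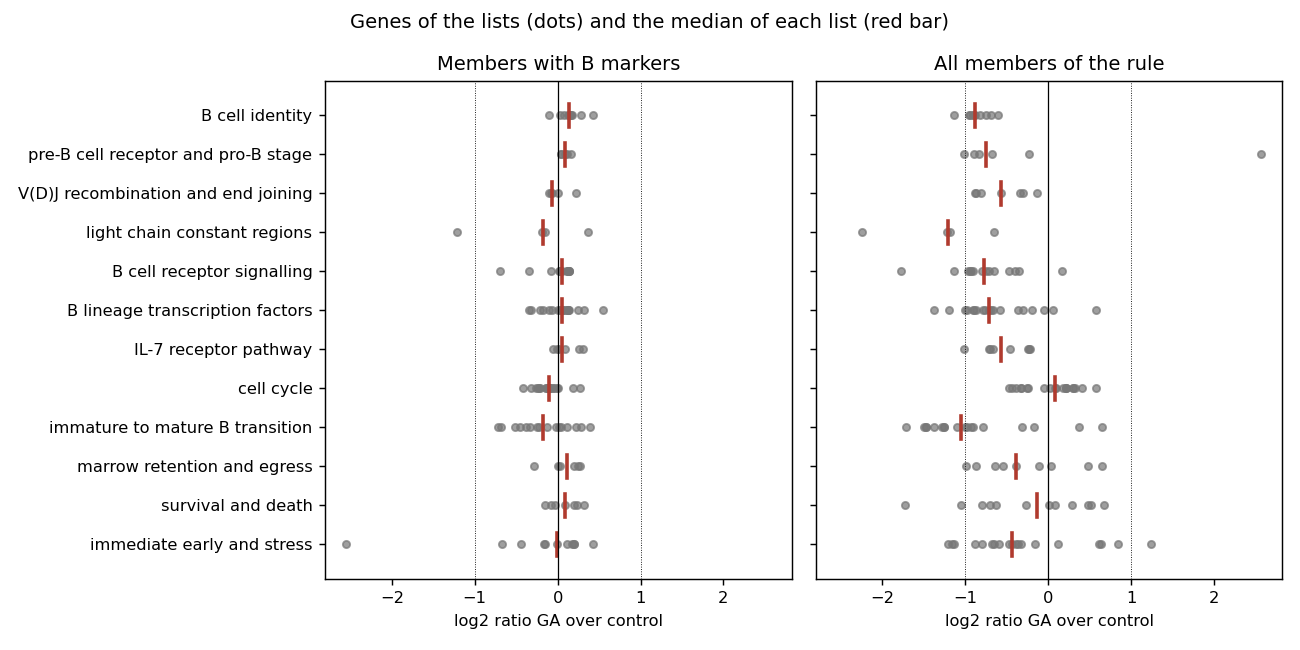
Log2 ratio GA over control of each compared gene (grey) and the median (red bar) for 12 lists, in the members with B markers (left) and all members (right), with dotted lines at -1 and 1. On the left the medians lie within 0.2 of 0, and on the right most lie below 0.

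Of the neurotrophin receptors, Ntrk2 and Ngfr had 0 UMIs in both libraries, Ntrk3 had 2 and 0, and Sort1, a sorting receptor that also binds neurotrophin precursors, had 6 and 10 UMIs.

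A light chain call, from constant region UMIs alone, could be made in most cells. A cell with at least 10 UMIs of Igkc, Iglc1, Iglc2 and Iglc3 was called κ or λ when 80% of them were of that chain. Of 182 GA and 187 control cells with enough UMIs, 141 (77.5%, 70.7 to 83.3) and 135 (72.2%, 65.2 to 78.5) were κ, 18 (9.89%) and 25 (13.4%) λ, and 23 (12.6%) and 27 (14.4%) held both. Too few UMIs were found in 28 of 210 GA cells (13.3%) and 49 of 236 control cells (20.8%). The intervals of the κ share overlapped. In pro-B and large pre-B cells, 157 of 195 in GA and 116 of 150 in control had too few UMIs. Of the rest 36 of 38 and 34 of 34 were κ and 0 were λ. A κ call alone therefore does not place a cell after that stage. At a minimum of 50 light chain UMIs, κ was 72.3% of 47 GA cells (57.4 to 84.4) and 53.5% of 43 control cells (37.7 to 68.8), and λ 14.9% and 25.6%.

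The ranges differed in λ. In the dividing range no cell was λ in either library. With Rag only, 11 of 76 GA and 10 of 71 control cells were λ, with both kinds of transcript 4 of 13 and 5 of 10, and with neither 3 of 35 and 0 of 34. In the Ms4a1 only range 0 of 33 GA and 10 of 53 control cells were λ, 28 and 25 were κ and 4 and 17 held both. Iglc1 in this range was at 357 CPM in GA and 2066 CPM in control. Light chain UMIs had medians of 65 and 56 in the Ms4a1 only range against 18 and 15 in the Rag only range.

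**Figure D5:**
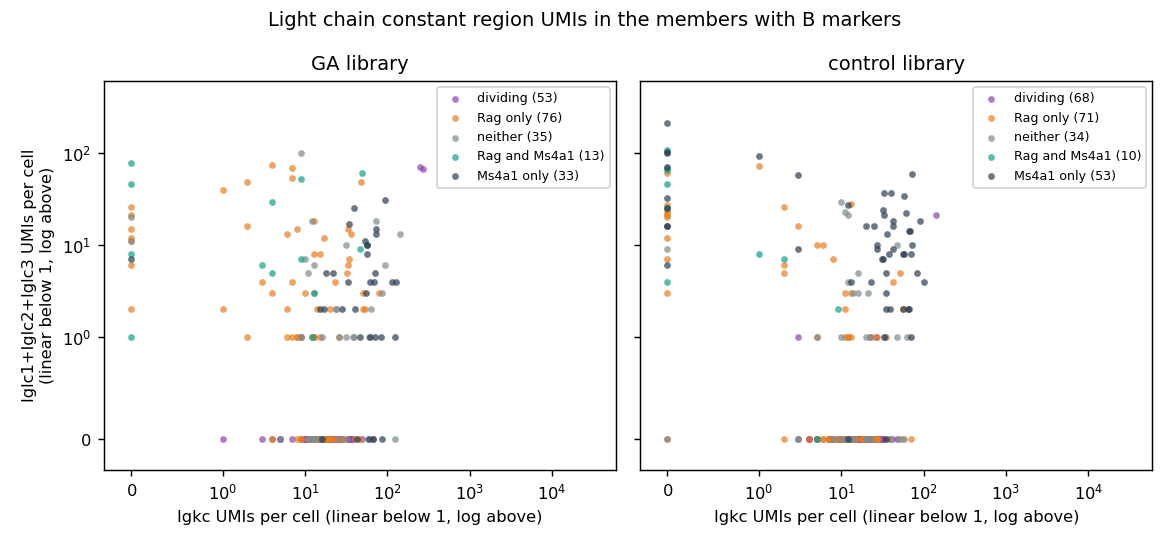
Iglc1, Iglc2 and Iglc3 UMIs against Igkc UMIs per cell (linear below 1, log above), 1 point per member with B markers, coloured by range. Most cells lie along the Igkc axis, and the control Ms4a1 only cells include 10 λ cells where the GA cells of that range include 0.

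These light chain UMIs stood far above the free RNA of the droplets. After thinning to 2000 UMIs, Igkc was found in 88.6% of GA and 84.3% of control cells with B markers against 1.59% and 2.14% of neutrophils, and λ genes in 43.3% and 36.9% against 0.360% and 0.122%. Median depths were 5676 and 5367 UMIs in the B cells and 7747 and 6347 in the neutrophils. V genes could rarely be named, with an Igkv gene at 3 or more UMIs in 6 and 9 cells.

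Against the stage before, the members with B markers lacked a set of early genes that the rule did not use. Vpreb2, a copy of the surrogate light chain gene Vpreb1 that the rule limits, had 0 and 1 UMIs against 911 and 455 in the pro-B and large pre-B cells. Erg, a transcription factor of progenitors, was at 9.49 and 7.24 CPM against 324 and 251, and Arpp21 had 2 and 0 UMIs against 672 and 472. In the other direction Reln had 176 and 105 UMIs against 3 and 0, Cd2, an adhesion receptor, was at 159 and 153 CPM against 7.40 and 6.82, and Fcmr, the IgM Fc receptor, at 96.2 and 115 against 3.70 and 1.24. Since the same cells were split by the rule, these contrasts describe the stages.

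Against the Ighd-positive cells, Reln was again higher, at 111 and 63.4 CPM against 40.6 and 15.2. Fcer2a, the low-affinity IgE receptor CD23 of mature B cells, was at 4.43 and 11.5 CPM against 75.6 and 85.7. Cd86, a co-stimulatory ligand, was at 22.1 and 19.3 CPM against 137 and 194. Haemoglobin genes were among the lowest too, Hbb-bs with 17 and 43 UMIs in the members against 2053 and 365 in the Ighd-positive cells, of which 1 cell in each library held 2030 and 329. Kdm5b and B230118H07Rik, leaders of the Rag only range, were higher in the members in both libraries.

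Transcripts of other cell types were present at low levels. In the members with B markers 11 of 12 neutrophil markers in GA and 10 of 12 in control had a UMI, summing to 738 and 279 CPM. Of these sums S100a8 and S100a9 together gave 560 and 220 CPM. The rule limits both genes, so the difference between the sums is no finding. Their most abundant genes were S100a9 at 335 CPM in GA and S100a8 at 122 CPM in control, while Cxcr2 was at 0 in GA and Elane and Ly6g in control. S100a8 or S100a9 had a UMI in 68.6% and 33.9% of the thinned members, beside 54.3% and 22.4% of mesenchymal cells. As rule genes, their shares among the members are descriptions only.

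The marker lists of the other lineages were summed in the same way. Macrophage markers (10 and 11 of 12) summed to 158 and 177 CPM, led by Lyz2 and by Apoe, with Fcgr1 at 0 in both. T or NK markers (8 and 6 of 12) summed to 12.0 and 70.6 CPM, led in control by Gzma with 60 UMIs in 1 cell, and Cd3g and Trbc2 were at 0. Erythroid markers (7 and 8 of 10) summed to 50.6 and 79.1 CPM, led by Car2. Mesenchymal markers (9 and 10 of 10) summed to 361 and 492 CPM, led by Col1a1 and Col3a1. The rule limits these genes and Col1a2, so the difference between the mesenchymal sums is no finding. Endothelial markers (4 of 8 in each) summed to 287 and 269 CPM, nearly all Pecam1, which B cells also express, with Kdr and Tek at 0. Plasma cell markers (8 and 10 of 10) summed to 971 and 1057 CPM, led by Mzb1, and plasmacytoid dendritic markers (6 of 8 in each) to 357 and 341 CPM, led by Tcf4, both genes of B cells as well, with Siglech at 0. Conventional dendritic markers (3 and 5 of 8) summed to 4.43 and 16.9 CPM, led by Flt3, and basophil or mast markers (1 and 0 of 8) to 0.633 and 0 CPM. The part of these transcripts in the differences between GA and control was not tested.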

How the data were processed

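Cells of the calvarial defect were measured by droplet single-cell RNA-seq in 2 libraries, GA and control. The authors deposited counts, UMIs per gene and cell barcode, from Cell Ranger (7.0.1 in the file headers) with mm10 per the submitters' processing notes, unnormalised. The files hold 32285 genes and 9322 GA and 8718 control barcodes, summing to 182949385 and 214993030 UMIs (medians 10893 and 15469.5). Barcodes with 500 to 140000 UMIs, 200 to 9500 genes and at most 15% mitochondrial UMIs were kept, the limits the study states, which left 9036 and 8093. No doublet caller was run on the members. At least 2 UMIs of each of 3 or more markers of another lineage were found in 12 of 210 and 19 of 236 members with B markers. Of 23 barcodes shared by the libraries, none was a member in both.

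Members' UMIs were summed per library and gene and divided by their total (CPM). Log2 ratios had exact conditional binomial intervals, shares exact Clopper-Pearson intervals and share ratios log-normal intervals, all at 95% and for counting error only. The comparison took genes with at least 200 UMIs over both libraries and left out rule genes. Gene positions came from GENCODE vM21. Named genes were those of the lists, the 10 highest and 10 lowest ratios, and the 10 leaders of each range or neighbouring stage. Some genes that meet this rule or stand in a list are not reported here. The members and lists were chosen with earlier results of these data known. The requirement of 3 B marker UMIs and the dividing range were chosen after seeing the data. The study's methods and the labels differ on the dose of GA, and the labels' value is given. Python 3.11.15, NumPy 2.4.6, pandas 2.3.3 and SciPy 1.17.1 were used, and the counting code was tested on simulated data.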

Additional observations from a re-analysis of the deposited data

Results flagged for a closer look

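Outside the limits on cells, 286 GA and 625 control barcodes were not used. Among them 4 GA and 3 control barcodes held at least 4 UMIs of Cd79a and Cd79b and B markers. Of these 2 GA barcodes, with 185684 and 194785 UMIs, exceeded the UMI limit but met the rest of the rule, and 0 control barcodes did. They were noticed because a B cell signal appeared in barcodes that no comparison used.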

How the results depend on the processing

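Of 88 alternative values for the main results, 62 kept their size and 26 moved. Over all 495 members, the 288 genes above a log2 ratio of 1 became 66 with the mean of per-cell CPM, 646 at a minimum of 50 UMIs, 132 at 500 UMIs, 4 after thinning to 2000 UMIs (Ctsg, Elane, Mpo and Prtn3, Ctsg named after its values were seen), and 0 without cells holding markers of another lineage or with B markers required. The 137 below -1 became 90 relative to the median gene, 9 with per-cell CPM, 393 and 57 at minimums of 50 and 500 UMIs, 1 (Iglc2) after thinning and without cells of another lineage, and 3 with B markers required. In the members with B markers, the 0 above became 1 with per-cell CPM (Reln), 25 at a minimum of 50 UMIs and 1 (Lyz2) with free RNA subtracted. The 3 below became 64 at 50 UMIs, 1 (Iglc2) at 500 UMIs and after thinning, and 5 without the 5 cells richest in each gene (Apoe, Hist1h1a, Hist1h3c, Hspa1a and Iglc2). Without cells of another lineage they were Fcmr and Iglc2, with Hspa1a at a log2 ratio of -2.48 on fewer UMIs than the minimum and Hist1h3c at -0.84. With the dividing cells included, thinning lowered the share of cells with Rag1 or Rag2 and no Ms4a1 to 24.4% and 25.7% of all GA and control members and to 27.6% and 27.1% of those with B markers. At a minimum of 50 light chain UMIs, κ cells were 53.5% in control and 72.3% in GA. The stricter minimums and thinning compare fewer genes or UMIs, and the cause of the other shifts was not tested. The share ratios stayed within their intervals, but with 2 UMIs of Cd79a and Cd79b enough for a member the ratio over all cells passed from 0.885 to 1.02 and that over B lineage cells from 0.937 to 1.01. The ratio over all cells was 0.786 (0.653 to 0.944) with 8 such UMIs required, 0.812 (0.701 to 0.940) in thinned cells and 0.813 (0.673 to 0.984) without cells of another lineage. That over cells other than neutrophils was 1.16 (0.969 to 1.40) with 8 UMIs required and 1.20 (0.998 to 1.46) without cells of another lineage. In thinned cells that over B lineage cells was 0.894 (0.814 to 0.981). No paired analysis was possible because each condition has 1 library, which also leaves no replicate to leave out. Depth limits genes under 200 UMIs most.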
